A study of Homo sapiens with 2 samples.

Results

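Of the 4046 epithelial-like cells found in a culture of human pacemaker-like heart cells, the 607 with the highest combined level of GRIA4, CYP1A1, IRX1, CLDN3 and WNT7B are described here. The culture was grown from HES2, a human embryonic stem cell line, that had undergone differentiation towards SANLPC, sinoatrial node-like pacemaker cells. Its 2 libraries came from the same cells: 1 of polyA RNA and 1 of the oligonucleotide tags on a TotalSeq antibody against human CD34, a pairing called CITE-seq. DAPI staining had been used to sort living single cells, and the libraries were made with a 10x Genomics single cell 3' v3 kit. With 1 culture there was no replicate and no comparison of conditions, so no test was made, and every interval given is an exact 95% interval that covers counting error only.

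The deposited table held 239181462 RNA UMIs (unique molecular identifiers, 1 per captured transcript) and 2773855 tag UMIs in 14829 barcodes, and 11211 barcodes passed the limits on detected genes, mitochondrial UMIs and total UMIs. Among these, an epithelial-like cell had under 1000 CPM (counts per 1000000 UMIs) of TNNT2, the cardiac troponin T gene, and of COL1A1, a collagen gene of fibroblasts. It also had at least 5 UMIs over VTCN1, GATA3, CLDN4 and WNT6. The score that ranked these cells was the mean of log1p counts per 10000 UMIs over the 5 rule genes, and the members were the top 15%. The other 3439 epithelial-like cells were the comparison. The 5965 cells with at least 1000 CPM of TNNT2 (TNNT2 cells) and the 781 with at least 1000 CPM of COL1A1 (COL1A1 cells) served as reference levels. The 5 genes had been picked from earlier results of these data, so their levels in the members are given as a description.

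GRIA4 encodes a subunit of the AMPA type of glutamate receptor, best known from fast synapses of the brain. CLDN3 encodes a claudin, 1 of the strand proteins of the tight junctions that seal neighbouring epithelial cells, and WNT7B a secreted WNT ligand. IRX1 is a homeobox transcription factor of the Iroquois family. CYP1A1 is a cytochrome P450 enzyme that oxidizes aromatic compounds, and it is the classical target of the aryl hydrocarbon receptor AHR, which with its partner ARNT binds DNA at a core motif written GCGTG. On GRCh38.p14, RefSeq places GRIA4 at chr11:105609994-105982090, CYP1A1 at chr15:74719542-74725528, IRX1 at chr5:3595832-3601403, CLDN3 at chr7:73768997-73770270 and WNT7B at chr22:45920366-45977162.

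The 250 bases before the start of 3 genes, from RefSeq on GRCh38.p14, are shown because CYP1A1 helped to choose the members and WNT3 and SEMA3E had the highest ratios among the other genes that reached 20 CPM in either group and fell under the rule for named genes. All 3 genes lie on the minus strand and each sequence runs 5′ to 3′ towards the gene. Capitals mark GCGTG on either strand. For SEMA3E the first of 2 listed starts was taken.
CYP1A1, chr15:74725529-74725778: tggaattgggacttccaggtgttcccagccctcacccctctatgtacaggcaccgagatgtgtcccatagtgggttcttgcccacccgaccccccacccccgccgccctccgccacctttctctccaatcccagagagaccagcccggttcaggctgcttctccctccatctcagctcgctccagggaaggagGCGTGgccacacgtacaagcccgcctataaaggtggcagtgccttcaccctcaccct
WNT3, chr17:46818693-46818942: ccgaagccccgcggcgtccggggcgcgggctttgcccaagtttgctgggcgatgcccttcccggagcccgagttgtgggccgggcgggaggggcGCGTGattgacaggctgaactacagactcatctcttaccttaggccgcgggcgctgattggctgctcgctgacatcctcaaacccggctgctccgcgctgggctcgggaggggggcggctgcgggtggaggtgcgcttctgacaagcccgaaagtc
SEMA3E, chr7:83649140-83649389: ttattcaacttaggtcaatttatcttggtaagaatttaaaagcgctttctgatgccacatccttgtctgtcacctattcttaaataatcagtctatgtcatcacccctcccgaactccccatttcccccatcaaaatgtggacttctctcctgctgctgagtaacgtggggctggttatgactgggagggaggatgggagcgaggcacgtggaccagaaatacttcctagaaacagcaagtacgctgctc
The CYP1A1 window held 1 match, whose first base lay 57 bases before the start. The WNT3 window held 1 match, at 156 bases before the start, and the SEMA3E window held 0. Of the 35116 windows of this length in the table, 11313 (32.2%) held at least 1 match, and a match is a run of letters, not a measured binding site.

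The members did not form a separate class but the top of a continuous score. The lowest member scored 0.597261 and the highest cell left out scored 0.596598. Within 10% of the cut lay 360 cells, 161 members and 199 others, which is 8.90% of all epithelial-like cells. The median score was 0.712 in the members, with a highest value of 1.73, and 0.246 in the others, of which 486 had no UMI of any rule gene. All 5 genes were detected together in 74 members (12.2%), 4 genes in 279 (46.0%), 3 in 210 (34.6%) and 2 in 44 (7.25%). GRIA4 was the gene with the largest part of the score in 397 members (65.4%), followed by CYP1A1 in 66, WNT7B in 53, IRX1 in 48 and CLDN3 in 43. The members were therefore mostly cells of high GRIA4, with a smaller set led by each other gene.

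Among the rule genes, GRIA4 had a median of 5 UMIs per member (quartiles 3 and 8, highest 32) against 1 in the other epithelial-like cells, or 348 against 99.9 CPM. CLDN3 had a median of 2 UMIs (quartiles 1 and 3, highest 10) against 0, or 119 against 35.8 CPM. WNT7B had the same median and quartiles, with a highest value of 12, or 126 against 35.3 CPM. The groups overlapped for each of these genes, since 60.5% of the other cells had a GRIA4 UMI 37.2% had one of CLDN3 and 37.3% one of WNT7B. IRX1 had a median of 1 UMI in the members (quartiles 0 and 2, highest 10), or 92.2 against 26.1 CPM. CYP1A1 was the most uneven, with a median of 0, an upper quartile of 2 and a highest value of 34, or 96.3 against 12.5 CPM, and 39.0% of members had a CYP1A1 UMI. In TNNT2 cells the 5 genes lay between 2.94 CPM (CYP1A1) and 13.1 CPM (GRIA4), and in COL1A1 cells between 1.94 and 12.9 CPM.

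Depth was similar in both groups. The median was 16477 RNA UMIs in the members (quartiles 12680.5 and 20721) and 17606 in the others (quartiles 13116 and 22291.5), with 4618 and 4775 detected genes and 6.02% and 5.78% mitochondrial UMIs. After each cell was thinned to 5000 UMIs, which left out 10 members and 58 others, a GRIA4 UMI was found in 76.7% of members, 33.2% of the others and 3.95% of TNNT2 cells. The unthinned shares were 96.4%, 60.5% and 9.04%, with a median of 16100 UMIs in TNNT2 cells. CLDN3 after thinning was at 42.2%, 15.4% and 1.93%, and WNT7B at 47.1%, 15.7% and 1.66%. IRX1 was at 34.5%, 12.3% and 1.68%, and CYP1A1 at 23.3%, 4.38% and 1.01%. TNNT2 cells, where these genes were near their lowest, gave a reference level, and the other epithelial-like cells lay above it for all 5 genes. Whether that level came from free RNA in the droplets or from the cells themselves was not tested.

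**Figure D1:**
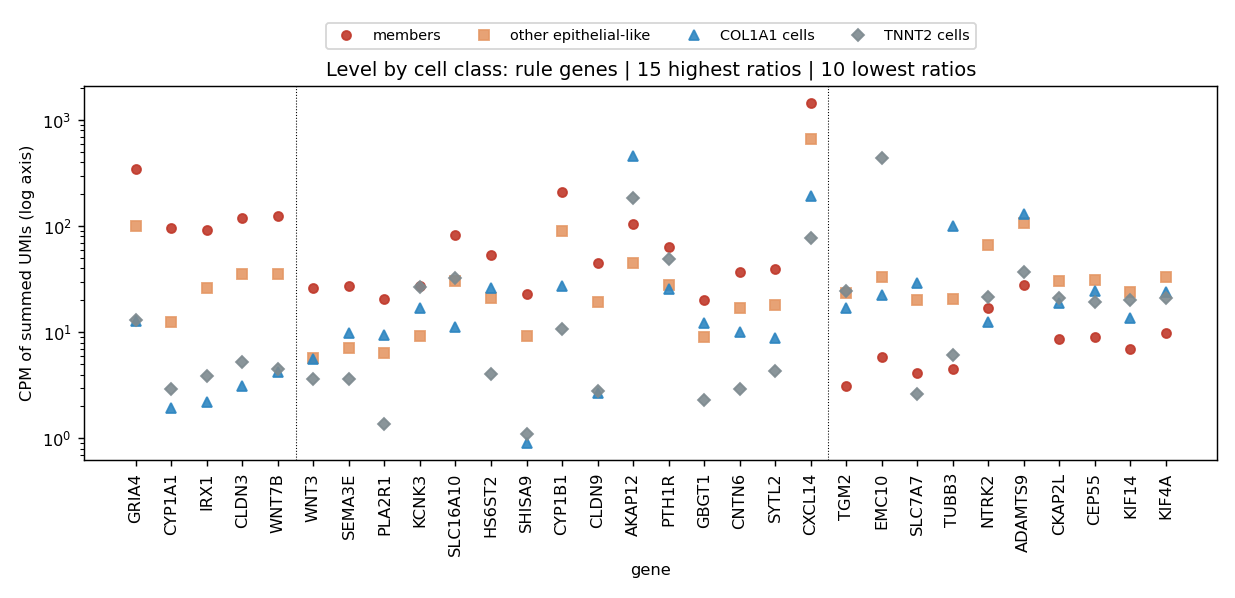
Level of each gene as CPM of summed UMIs on a log axis, for the 5 rule genes, the 15 genes with the highest and the 10 with the lowest ratio of members to other epithelial-like cells; each symbol is 1 cell class. The rule genes lay lower in TNNT2 and COL1A1 cells than in either epithelial-like group, with GRIA4 at 348 CPM in the members and 13.1 CPM in TNNT2 cells.

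Each rule gene was also measured in cells that it had no part in choosing, the top 15% by the other 4 genes. All 5 were higher in those cells than in the rest. GRIA4 was at 213 against 122 CPM, a ratio of 1.74 (1.66 to 1.83), and CLDN3 at 77.3 against 42.8 CPM, a ratio of 1.81 (1.67 to 1.96). WNT7B was at 82.4 against 42.6 CPM, a ratio of 1.93 (1.79 to 2.09), and IRX1 at 56.7 against 32.0 CPM, a ratio of 1.77 (1.61 to 1.95). CYP1A1 was at 42.7 against 21.5 CPM, a ratio of 1.99 (1.78 to 2.22). Since the 5 genes were picked together from these same data, these ratios describe the choice and support nothing beyond it. Between 436 (71.8%) and 508 of the 607 members were still chosen when 1 gene was left out, the fewest without GRIA4.

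The members also lay together in genes that played no part in the rule. Among the 15 nearest neighbours of a member, found in 30 principal components of 2000 variable genes without the rule and gate genes, 34.9% on average were members. The figure was 11.9% around the other cells, and members made up 15% of all. Most neighbours were members for 147 members (24.2%) and for 94 other cells (2.73%), while 21 members (3.46%) had no member among their neighbours. They were thus gathered in the data but mixed with other epithelial-like cells. The rule genes had been picked from these same data, and genes of the cell cycle were not left out of the variable genes. These shares therefore describe the choice and support nothing beyond it.

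The antibody tag was a measure that the rule did not use. CD34 is a surface sialomucin known from blood stem cells and endothelium. The median was 38 tag UMIs in the members (quartiles 29 and 51) and 38 in the other epithelial-like cells (quartiles 29 and 53), against 80 in TNNT2 cells (quartiles 43 and 247). Over 108 tag UMIs, the level that 75% of passing cells did not reach, were 18 of 607 members (2.97%, 1.77% to 4.65%), 2.91% of the others (2.37% to 3.53%) and 42.0% of TNNT2 cells. The CD34 transcript had 2 counts in all members, 12 in the others and 703 in TNNT2 cells. By both readouts the members lay with the other epithelial-like cells and below the TNNT2 cells.

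Across genes, 6796 reached 20 CPM in the members or in the other cells and are called measured. A gene is called higher at a ratio of members to others of 1.5 or more, and lower at 0.667 or less. By that limit 81 genes (1.19%) were higher, the 5 rule genes and the gate gene WNT6 included, and 238 (3.5%) were lower, with a median log2 ratio of 0.01 over all measured genes. These counts describe a contrast that the rule itself defined, and the list counts below are to be read against these shares.

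**Figure D2:**
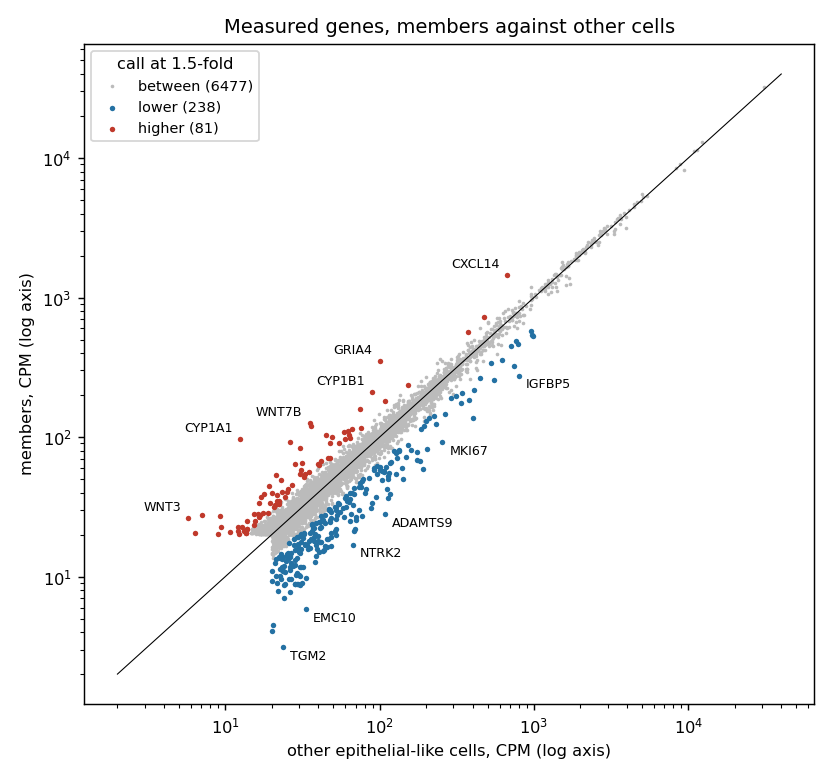
Each point is 1 measured gene, with its CPM in the other epithelial-like cells on the x axis and in the 607 members on the y axis, both log axes; red points were higher and blue points lower at 1.5-fold. Most genes lay along the line of equal levels, and 81 stood above and 238 below the limits.

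The leading higher genes outside the rule were 2 secreted signals. WNT3, a WNT ligand, was at 26.3 CPM in the members and 5.75 in the others, a ratio of 4.58 (3.89 to 5.38). SEMA3E, a secreted semaphorin that guides axons and vessels through plexin D1, was at 27.6 against 7.07 CPM, a ratio of 3.91 (3.35 to 4.55). A UMI of WNT3 was found in 26.5% of members and 7.85% of the others, and one of SEMA3E in 25.4% and 9.94%, so each was absent from the counts of most members. After thinning, the WNT3 shares were 12.2% and 2.96%, with 1.62% in TNNT2 cells. Those of SEMA3E were 12.1% and 3.82%, with 1.80% in TNNT2 cells. WNT3 was at 3.62 CPM in TNNT2 cells and SEMA3E at 3.64.

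The most abundant of the named higher genes was CXCL14, a chemokine made by many epithelia. Its UMIs per member ran from 0 to 410 with a median of 1 and an upper quartile of 19, against a median of 0 and an upper quartile of 6 in the others. The sums were 1444 and 666 CPM, a ratio of 2.17 (2.13 to 2.21). The 10 members with the most CXCL14 held 21.4% of its counts, and the ratio without the 10 highest cells of each group was 1.86. In the others, a larger group, the 10 highest cells held 6.94%, so the removal was unequal. CXCL14 was therefore high in some members and at or near 0 in others.

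The remaining named higher genes encode proteins of several kinds. KCNK3, a background potassium channel, was at 27.2 against 9.20 CPM (ratio 2.96), and SHISA9, an auxiliary protein of AMPA receptors, at 22.7 against 9.33 (ratio 2.44). PTH1R, the receptor of parathyroid hormone, was at 64.1 against 28.1 CPM (ratio 2.28), and PLA2R1, a phospholipase A2 receptor, at 20.6 against 6.35 (ratio 3.24). SLC16A10, a transporter of aromatic amino acids, was at 83.1 against 30.5 CPM (ratio 2.73). HS6ST2, which sulfates heparan sulfate, was at 53.7 against 21.3 CPM (ratio 2.53), and GBGT1, a glycosyltransferase of the Forssman antigen, at 20.3 against 9.02 (ratio 2.25). CLDN9, another claudin, was at 44.8 against 19.1 CPM (ratio 2.34), and CNTN6, a contactin of neural cell adhesion, at 37.4 against 16.9 (ratio 2.21). AKAP12, a scaffold for protein kinase A, was at 104 against 44.9 CPM (ratio 2.32), and SYTL2, a synaptotagmin-like protein of vesicle transport, at 39.2 against 17.9 (ratio 2.19). Some of these genes were not limited to the epithelial-like cells: AKAP12 was at 183 CPM in TNNT2 cells and 458 in COL1A1 cells, PTH1R at 49.3 and KCNK3 at 26.9 in TNNT2 cells. SHISA9 and CLDN9 were low in both, at 1.09 and 2.80 CPM in TNNT2 cells.

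The ratios of these genes stayed above 1.5 with any 1 rule gene left out. The genes had been picked for the highest ratios of the same contrast, and most cells chosen were members each time. Several, such as WNT3 and SEMA3E, reached the 20 CPM floor through the members alone. Staying above 1.5 therefore describes the choice and supports nothing beyond it. When the cells were chosen by 4 of the 5 rule genes, WNT3 had ratios of 3.56 to 4.46, lowest without WNT7B. SEMA3E had 2.98 to 4.03 and CXCL14 1.71 to 2.40, both lowest without CYP1A1. KCNK3 had 2.26 to 2.97 and SHISA9 1.85 to 2.53, both lowest without GRIA4. CYP1B1, described next, moved most, from 2.35 to 1.58 without CYP1A1. The ratio of all 15 named higher genes stayed above 1.5 in each of the 22 alternatives run for them, whether or not the gene reached the floor there. Alternatives that changed only the floor or the fold limit could not move a ratio.

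**Figure D3:**
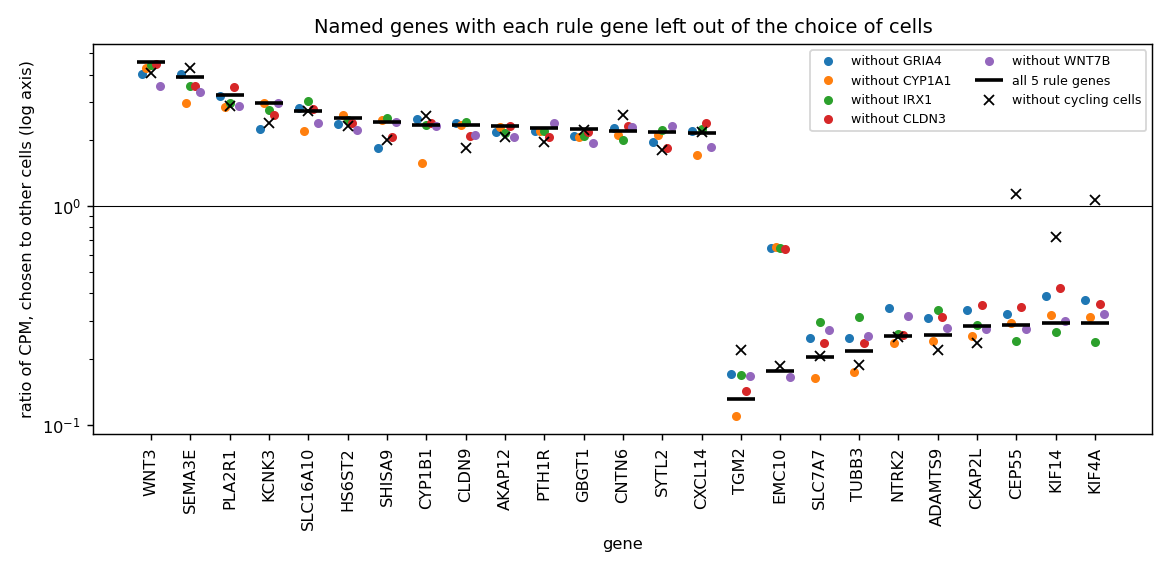
Ratio of CPM, chosen to other cells, on a log axis for the 15 named higher and 10 named lower genes: coloured points have 1 rule gene left out of the choice of cells, bars use all 5 and crosses leave out cycling cells. The 15 higher genes stayed above 1.5 at every point, while EMC10 moved from 0.176 to about 0.64 in 4 of the choices and CEP55 and KIF4A rose past 1 without cycling cells.

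The list of aryl hydrocarbon receptor genes had 9 of 15 genes measured, 2 higher (the rule gene CYP1A1 and CYP1B1) and 0 lower. Over all measured genes 1.19% were higher and 3.5% lower. The median log2 ratio of the list was 0.24 against 0.01 over all genes. CYP1B1, a related P450 enzyme and a known AHR target, was at 211 CPM in the members and 89.6 in the others, a ratio of 2.35 (2.24 to 2.47). CYP1A2, the neighbour of CYP1A1 in the genome, was below the 20 CPM floor at 15.3 against 5.65 CPM, a ratio of 2.71 (2.23 to 3.28). The other targets differed less: TIPARP, which modifies and damps AHR, was at 105 against 82.1 CPM (ratio 1.28) and NQO1, a quinone reductase, at 54.1 against 65.6 (ratio 0.825). The receptor gene AHR was at 27.5 against 23.2 CPM (ratio 1.19), and AHRR, the repressor of AHR, had 4 counts in the members and 18 in the others.

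CYP1A1 divided the members into 237 cells with a UMI and 370 without, of median 17951 and 15526 RNA UMIs. A member with CYP1A1 needed less of the other 4 genes to reach the cut. CYP1B1 was at 344 CPM in members with CYP1A1, 112 in members without, 233 in the 368 other cells with CYP1A1 and 70.4 in the 3071 without. CYP1B1 was thus higher with a CYP1A1 UMI than without in both groups, and higher in members than in others at either state. CYP1A2 ran the same way, at 22.0, 10.3, 13.6 and 4.59 CPM in that order, and TIPARP at 128, 88.9, 113 and 77.9. NQO1 did not, at 63.8, 47.0, 79.25 and 63.8 CPM, lower in members than in others at either state. AHR differed little by a CYP1A1 UMI, at 28.5, 26.8, 22.4 and 23.3 CPM, and AHRR had 3, 1, 2 and 16 counts. WNT3, at 26.9, 25.9, 7.83 and 5.47 CPM, differed more by membership than by a CYP1A1 UMI. So did KCNK3, at 25.02, 28.8, 10.03 and 9.08. SLC16A10, at 112, 61.9, 43.7 and 28.7 CPM, SEMA3E, at 37.2, 20.5, 10.03 and 6.67, and CXCL14, at 1896, 1110, 1060 and 614, differed by both. CYP1A1 was a rule gene, and the 237 members held 987 counts of it, against 769 in the 368 other cells. A CYP1A1 UMI thus did not mark an equal level in both groups, and these values describe the choice.

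Of the glutamate receptor list 3 of 26 genes were measured and 2 were higher, against 1.19% of all measured genes. These were the rule gene GRIA4 and SHISA9, which reached the floor through the members alone. The other AMPA subunits were all but missing: GRIA1 had 0 counts in the members and in the others, GRIA2 had 1 and 7, and GRIA3 had 1 and 8. GRIN2A, a subunit of the NMDA type, was under the floor at 17.4 against 10.6 CPM, a ratio of 1.63 (1.37 to 1.93), and GRIN1, the subunit that all NMDA receptors need, had 7 counts in the members and 25 in the others. GRIA4 was therefore the only AMPA subunit gene with more than 1 count in the members.

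In the Iroquois list 2 of 6 genes were measured and 1, the rule gene IRX1, was higher, against 1.19% of all measured genes. IRX2, its neighbour on chromosome 5, was at 95.6 against 78.1 CPM, a ratio of 1.22 (1.14 to 1.31). IRX3 was under the floor at 5.27 against 2.36 CPM (ratio 2.24, 1.60 to 3.08), and IRX4, known from heart ventricle, at 4.58 against 6.78. The level of IRX2 was thus like that of IRX1 in the members as CPM, but it differed little between the groups.

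The claudin and tight junction list had 16 of 29 genes measured, 2 higher and 0 lower, with a median log2 ratio of 0.13. Over all measured genes 1.19% were higher and 3.5% lower. The higher genes of the list were CLDN3, a rule gene, and CLDN9. CLDN9 lies beside CLDN6 on chromosome 16, at chr16:3012923-3014505, and CLDN6, at chr16:3014712-3018183, was at 521 against 476 CPM (ratio 1.09). CLDN3 lies near CLDN4 on chromosome 7, and CLDN4, a gate gene, was at 718 against 572 CPM (ratio 1.26). CLDN7 had a ratio of 1.17, and CLDN15, which forms cation pores, was at 166 against 210 CPM (ratio 0.791). How the counting treated reads shared between related claudins was not examined.

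The WNT ligand list had the most higher members among the pathway lists, 4 of its 7 measured genes, with 1 lower and a median log2 ratio of 0.59. Over all measured genes 1.19% were higher and 3.5% lower. WNT7B was a rule gene and WNT6 a gate gene. Without these, 2 of 5 measured genes were higher and the median was 0.15. WNT4 was at 45.4 against 27.0 CPM, a ratio of 1.68 (1.51 to 1.86), and WNT6 at 564 against 375, a ratio of 1.505 (1.46 to 1.55) that lies on the limit. WNT10A was under the floor at 18.3 against 6.11 CPM, a ratio of 3.002 (2.51 to 3.59). WNT5A, a ligand best known for signalling without beta-catenin, went the other way at 39.9 against 64.1 CPM, a ratio of 0.622 (0.561 to 0.689).

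Of the WNT receptors and antagonists 13 of 33 were measured, 1 was higher and 1 lower, both secreted WNT binders. The shares over all measured genes were 1.19% and 3.5%. FRZB was at 49.3 against 22.9 CPM, a ratio of 2.15 (1.94 to 2.38), and SFRP1 at 20.6 against 48.1, a ratio of 0.428 (0.370 to 0.492). Of 13 WNT target genes 1 was measured and 0 were higher. AXIN2, a common readout of beta-catenin signalling, was under the floor at 6.15 against 4.598 CPM, and LEF1 at 1.56 against 4.18. ZNRF3, RNF43 and AXIN2 had ratios of 1.42, 1.30 and 1.34, all under the floor. Without cycling cells 2 target genes were measured and 1 was higher.

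**Figure D4:**
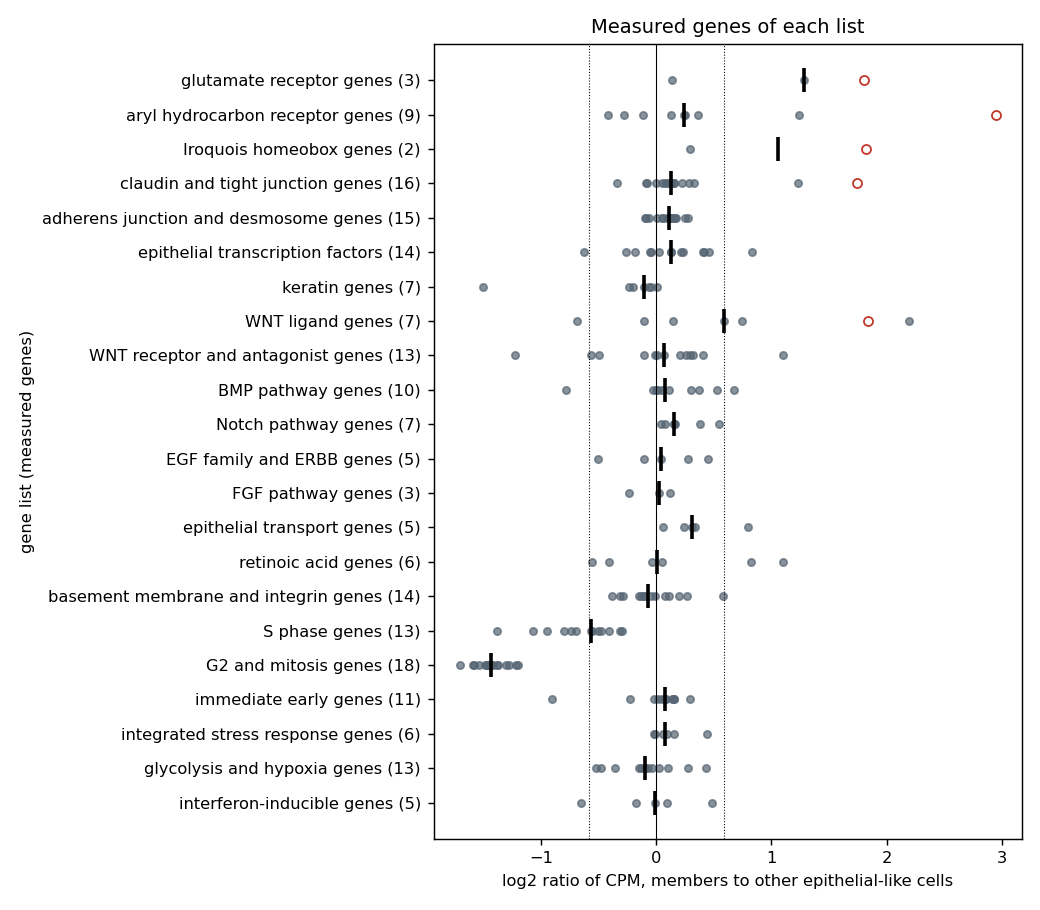
Each point is 1 measured gene of a pathway list with at least 2 measured genes, placed by its log2 ratio of CPM, members to other epithelial-like cells; open red circles are rule genes, black ticks are list medians and dotted lines mark 1.5-fold. WNT ligand genes spread to both sides, all 18 G2 and mitosis genes lay left of the lower line, and adhesion genes clustered near 0.

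In general epithelial genes the members were close to the cells they were taken from, though the shared gate in part set this in advance. EPCAM, an epithelial adhesion gene, was at 856 against 803 CPM. Of 17 adherens junction and desmosome genes 15 were measured, 0 higher and 0 lower. The shares over all measured genes were 1.19% and 3.5%, so 0 of 15 is near them. The keratins KRT8 and KRT18 had ratios of 0.971 and 0.957, and of 7 measured keratins only KRT17, a keratin of stressed and basal epithelia, was lower, at 50.4 against 143 CPM (ratio 0.354). Of 30 epithelial transcription factors 14 were measured. EYA2, a transcriptional coactivator, was higher at 38.6 against 21.7 CPM (ratio 1.78), and HAND1, a mesodermal and extraembryonic factor, was lower at 339 against 523 (ratio 0.649). The AP-2 genes and ELF3 lay between the limits: TFAP2A had a ratio of 1.01, TFAP2C 1.16, TFAP2B 1.37 and ELF3 1.32.

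Smaller groups of secreted and signalling genes held single differences. The retinoic acid list had 2 of 6 measured genes higher, against 1.19% of all measured genes. They were CRABP1, a retinoic acid binding protein, at 158 against 74.1 CPM (ratio 2.14), and RARB, a receptor and known target, at 22.8 against 12.9 (ratio 1.77). CRABP2 was at 261 against 385 CPM (ratio 0.679), just inside the limit, and CYP26A1, which degrades retinoic acid, had 56 counts in the members and 57 in the others, a ratio of 5.90 (4.01 to 8.68) far under the floor. In the BMP list SMAD6, an inhibitor within the cell, was higher (ratio 1.60) and NOG, a secreted antagonist, lower (ratio 0.583) among 10 measured. For this list and those below, the shares over all measured genes were 1.19% higher and 3.5% lower. Of epithelial transport genes SCNN1A, the alpha subunit of the epithelial sodium channel, was higher among 5 measured, at 33.8 against 19.4 CPM (ratio 1.74). The lists for Notch (7 measured), EGF and ERBB (5), FGF (3), basement membrane and integrins (14), integrated stress response (6) and glycolysis and hypoxia (13) had 0 genes past either limit. In lists this short, 0 is near the shares over all measured genes. FREM2, of the basement membrane list, was just inside the limit at a ratio of 1.493. Immediate early genes, which respond to dissociation, had IER3 lower (218 against 408 CPM) among 11 measured, and interferon-inducible genes had HLA-C lower (20.7 against 32.4 CPM) among 5.

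Genes of the cell cycle were lower in the members. All 18 G2 and mitosis genes were measured and all 18 were lower, against 3.5% of all measured genes, with a median log2 ratio of -1.44. MKI67, a marker of cycling cells, was at 92.0 against 255 CPM (ratio 0.360), TOP2A at 59.0 against 192 (ratio 0.308) and CENPF at 138 against 401 (ratio 0.344). Of the S phase genes 6 of 13 measured were lower and 0 higher, with a median of -0.57. At least 10 UMIs over the 34 listed cycle genes were found in 167 members (27.5%, 23.99% to 31.3%) and in 1636 of the others (47.6%, 45.9% to 49.3%). With cells thinned to 5000 UMIs and at least 5 such UMIs, the shares were 21.1% (17.9% to 24.6%) and 41.5% (39.8% to 43.1%), with 28.3% in TNNT2 cells.

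Fewer genes were lower when cycling cells were left out. Of the 238 lower genes 24 stood in the cycle lists. Without cycling cells, 2243 cells with 336 members remained, and 72 genes were higher and 114 lower. Of the genes called in all cells, 58 of 81 higher genes (71.6%) and 85 of 238 lower genes (35.7%) were called again. Among the 10 named lower genes, EMC10, TUBB3, NTRK2 and ADAMTS9 still reached the floor there and were lower, with ratios of 0.187, 0.188, 0.252 and 0.221. The other 6 were under the floor in both groups and had no call. By ratio CEP55, KIF14 and KIF4A, which act in cell division, were at 1.13, 0.727 and 1.06, while CKAP2L, a mitotic spindle gene, was at 0.236, TGM2 at 0.221 and SLC7A7 at 0.207.

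In all cells TGM2, a transglutaminase that links matrix proteins, was at 3.12 CPM in the members and 23.7 in the others, a ratio of 0.132 (0.0898 to 0.187). NTRK2, the receptor of the neurotrophin BDNF, was at 17.0 against 66.7 CPM, a ratio of 0.254 (0.217 to 0.296), and ADAMTS9, a secreted protease, at 28.0 against 108, a ratio of 0.259 (0.229 to 0.292). SLC7A7, an amino acid transporter subunit, was at 4.10 against 20.05 CPM (ratio 0.204), and TUBB3, a tubulin best known from neurons, at 4.49 against 20.5 (ratio 0.219). EMC10, a subunit of a membrane protein insertion complex, had a ratio of 0.176, but 58.1% of its counts in the others came from 10 cells. Its ratio was 0.312 without the 10 highest cells of each group, and it was at 439 CPM in TNNT2 cells.

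Levels were also read in 6 bins along the score, of which the upper pair holds the members. From the lowest 25% of cells to the top 5%, GRIA4 ran through 13.99, 72.7, 153, 221, 324 and 398 CPM. WNT3 ran through 1.89, 3.49, 8.60, 12.4, 25.1 and 28.8 CPM. It is no rule gene, but it was named for its high ratio across this same cut, so its rise describes the choice. CXCL14, SEMA3E, CYP1B1, EMC10 and TGM2 were named in the same way. CYP1B1 ran through 60.7, 76.9, 107, 137, 178 and 280. CXCL14 ran from 425 to 1831 CPM and SEMA3E from 4.998 to 41.9. EMC10 was between 21.5 and 46.1 CPM in the 4 bins below the cut and at 6.18 and 5.16 above it. Below the cut 10 cells held 58.1% of its counts, so few cells set these levels. In the other direction KRT17 ran through 222, 141, 86.6, 86.5, 57.8 and 34.9 CPM, MKI67 from 305 to 50.7 and TGM2 from 48.7 to 4.25. VTCN1, GATA3 and CLDN6 stayed nearer to level, VTCN1 from 512 to 611 CPM, GATA3 from 210 to 165 and CLDN6 from 451 to 540. VTCN1 and GATA3 are gate genes, so the choice of epithelial-like cells in part set their levels in every bin.

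**Figure D5:**
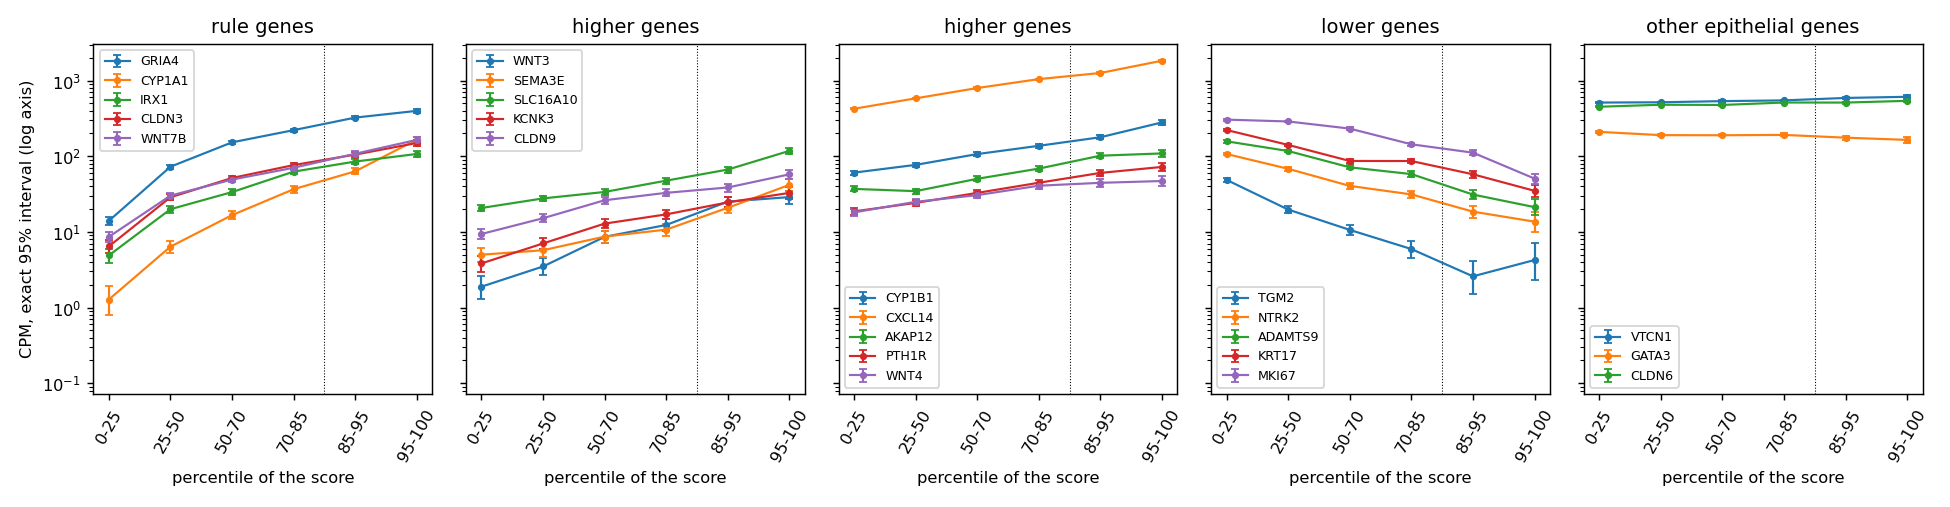
CPM with exact 95% intervals on a log axis in 6 bins of the score, from the lowest 25% of epithelial-like cells to the top 5%; the dotted line marks the cut at the top 15%. Rule genes and higher genes climbed across the bins, KRT17, MKI67 and TGM2 declined, and CLDN6 and the gate genes VTCN1 and GATA3 moved least.

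Markers of other cell types showed what else the cells could hold. The amnion list, which overlaps the gate, summed to 5516 CPM in the members and 5476 in the others, with 13 of 16 genes measured, WNT6 higher and HAND1 lower, against 1244 CPM in TNNT2 cells. The median cell held 89 UMIs of it in the members, 95 in the others and 14 in TNNT2 cells. Surface ectoderm markers summed to 492 and 547 CPM, otic and placode markers to 201 and 202, and trophoblast markers to 137 and 159. Genes at 0 in the members included PAX2, PAX8, SOX2, SOX3, OTX2 and OC90 of the otic and placode list, and, of the trophoblast list, CGB3, CGB5, HLA-G, GCM1, ERVFRD-1, INSL4, PSG1 and PSG3. Neural crest and glial markers summed to 369 and 297 CPM, with SOX10, FOXD3, S100B and NGFR among those at 0. The members are thus epithelial-like cells by their markers, and no marker list here gives them a more particular name.

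The lists for heart, matrix and blood vessel cells showed no excess in the members. Cardiomyocyte markers summed to 1272 CPM in the members, 1294 in the others and 45541 in TNNT2 cells, with median cells at 19, 20 and 727 UMIs. TNNT2 itself was at 340 CPM in the members and 331 in the others. Fibroblast and mesenchyme markers summed to 5402 and 5851 CPM, against 20649 in COL1A1 cells, with median cells at 84, 97 and 311 UMIs. Of 7 measured fibroblast genes COL1A1, which the gate limits, was lower at 54.6 against 127 CPM, and LUM, a matrix proteoglycan, at 323 against 744 (ratio 0.434). Epicardial and mesothelial markers summed to 174 and 156 CPM, with SEMA3D higher at 100 against 49.2 (ratio 2.04) and LRRN4 lower at 17.6 against 41.6 (ratio 0.422). Endoderm markers summed to 5.27 and 7.30 CPM, renal epithelial markers to 64.8 and 65.1, neural markers to 20.2 and 35.9, and endothelial markers to 1.56 and 2.27, with PECAM1 and CDH5 at 0 in the members. Blood markers summed to 59.0 and 47.5 CPM with PTPRC at 0, and pluripotency markers to 155 and 164. Scrublet, which scores droplets for holding more than 1 cell, called 6 members (0.988%, 0.364% to 2.14%) and 77 of the others (2.24%, 1.77% to 2.79%).

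The 6 genes listed for other subsets of the epithelial-like cells were all measured. KRT17 was lower, as given above, and NPY, a neuropeptide, was at 392.2 against 579 CPM (ratio 0.677), just inside the limit. ITGB6, an epithelial integrin, was at 300 against 365 CPM (ratio 0.820), and PRSS12, a secreted protease, at 176 against 132 (ratio 1.33). EDN1, endothelin, had a ratio of 1.10 and NDNF a ratio of 1.09. KRT17 was thus the only gene of this list past the 1.5-fold limit.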

How the data were processed

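The deposited matrix held whole-number UMI counts per gene and antibody tag, made by the authors with Cell Ranger 6.1.2 per the file headers and on GRCh38 per the submitters' processing notes. Barcodes with at least 1000 genes, at most 25% mitochondrial UMIs and at most 35000 UMIs were kept, and cell classes followed the stated limits. UMIs were summed over cells and given as CPM, and ratios carry exact binomial intervals. A gene was measured at 20 CPM or more in the higher group, and called at 1.5-fold. Named genes are the 15 highest and 10 lowest ratios outside rule, gate, mitochondrial, ribosomal protein and clone-named genes, and up to 4 examples a list by distance from 1, and further list genes are named for their role, chosen after their values were seen. The members and the 38 lists were chosen with earlier results of these data known. Doublets called by Scrublet were kept, and leaving them out was an alternative. Other alternatives changed the share of cells taken, the gate, limits, floor, fold, scaling, depth, cycling cells and a random split of UMIs, with cells chosen on 1 part and levels measured on the other; choosing cells by 4 rule genes and leaving out the 10 highest cells were added after the data were seen. Where an alternative changed the cells or their scores, the top cells by score were chosen anew. Genes were matched to RefSeq positions by gene ID and symbol. Some marker genes are not reported here. The code was tested on simulated data. Tools were Python 3.11.15, numpy 2.4.6, scipy 1.17.1, scikit-learn 1.9.0 and scanpy 1.11.5.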

Additional observations from a re-analysis of the deposited data

How the results depend on the processing

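No paired analysis was possible because 1 culture gave 1 RNA library, and leaving out a replicate was not possible either. Of 4895 values recomputed under the alternatives, 4346 kept within the limits set for them, 534 moved and 15 turned direction. The values kept include gene ratios under a changed floor or fold limit, which could not move, so their number overstates stability. The 81 higher and 238 lower genes became 136 and 365 at a floor of 10 CPM, 37 and 107 at 50 CPM, 319 and 507 at the looser fold limit tried and 25 and 107 at 2-fold, where the limit itself sets the count. Without cycling cells 114 were lower, and the higher genes made up 38.7% of calls in place of 25.4%. The medians of the CD34 tag, equal in all cells, had a ratio of 1.05 without cycling cells and 1.07 per 10000 RNA UMIs. The share of members among a member's neighbours was 27.4% for the top 10% of cells, 42.4% for the top 20%, 25.9% with thinned scores, 27.4% with split UMIs and 30.2% without cycling cells, and stayed above the share around other cells each time. For rule genes left out of the choice, thinned scores gave 1.61 for GRIA4, 1.56 for CYP1A1, 1.64 for CLDN3 and 1.65 for WNT7B. Without cycling cells the ratios were 1.59 for GRIA4, 1.605 for CYP1A1, 1.58 for IRX1, 1.53 for CLDN3 and 1.725 for WNT7B. All 15 turned values were log2 ratios without cycling cells, an alternative that removes cells by most of these genes: CEP55 0.18, KIF4A 0.0889, MCM7 0.20, TYMS 0.037, GINS2 0.013, CDC6 0.12, MKI67 0.20, CCNB1 0.0075, CCNB2 0.087, AURKB 0.35, PLK1 0.0014, CENPF 0.15, TPX2 0.11, BUB1 0.88 and CDC20 0.023. EMC10 had a ratio of 0.877 for the top 20%. Without the 10 highest cells of each group the other named lower genes had ratios between 0.0663 (TGM2) and 0.195 (ADAMTS9). That removal was unequal, since 10 cells are a larger part of 607 members than of 3439 others. For TGM2 they held 56.25% of the counts in the members and 11.6% in the others, so such ratios can fall by the removal itself. Depth limits single cells most: 2 UMIs was the median of CLDN3 and WNT7B in the members, so a cell near the cut could fall on either side. The choice of cells changed with fewer UMIs. With scores thinned to 5000 UMIs, 394 of the 597 cells chosen were among the members, and with split UMIs 440 of 607.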

Other observations

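Among cells outside the cycle, 336 members and 1907 others, further genes stood apart; these were chosen after their values were seen and carry no test. VIM, the intermediate filament gene of mesenchymal cells, was at 13.6 CPM in the members and 87.0 in the others, a ratio of 0.156 (0.122 to 0.198), lower than in all cells, where it was 0.317. ANKRD1, a known target of the coactivator YAP, was at 54.6 against 158 CPM (ratio 0.345), and IGFBP5, a secreted binder of insulin-like growth factors, at 298 against 792 (ratio 0.376). RAMP1, a partner of the calcitonin receptor-like receptor, was at 84.9 against 221 CPM (ratio 0.384), and PLAUR, the urokinase receptor, at 12.7 against 33.9 (ratio 0.373). In the other direction MUC15, a membrane mucin, was at 20.9 against 6.66 CPM, a ratio of 3.14 (2.46 to 3.99). CTSC, a lysosomal protease, was at 34.1 against 16.6 CPM (ratio 2.06), and MT1X, a metallothionein, at 36.2 against 17.5 (ratio 2.07).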
